A study of Caenorhabditis elegans with 8 samples.

Results

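The 30 genes described here serve DNA replication, mitosis and meiosis in the nematode Caenorhabditis elegans: 10 replication genes, 14 genes of the mitotic cell cycle and spindle, and 6 meiosis genes. They were chosen by name, with their roles from textbook knowledge, and all 30 were found among the 46904 genes of the deposited table. Their RNA was measured in 8 pools of whole worms of the strain CL2006, which the series describes as expressing the amyloid beta peptide. In this strain a muscle myosin promoter drives the human peptide in body wall muscle, and the animals of both groups carry it, although the genotype label reads WT for all 8. In 4 libraries the worms had eaten HT115(DE3) bacteria carrying a cpr-6 RNAi construct. In the other 4, called EV, the bacteria carried an empty vector. Both groups ate their bacteria for 2 generations at 20 °C. Adults were moved every day to leave their offspring behind, and were taken for RNA on day 6 of adult life. Libraries were made with CEL-Seq2, which sequences the 3′ end of each polyadenylated transcript.

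Somatic cells of adult worms no longer divide, so the germ line is the tissue in which cells still cycle. Germ cells at the distal end of each gonad arm copy their DNA and divide by mitosis. Further along they enter meiosis, pair their chromosomes, exchange DNA between them and grow into oocytes, which are stocked with transcripts that drive the first divisions of the embryo. Embryos held in the uterus divide as well. In pools of whole worms, fewer cells of a type and less RNA per cell cannot be told apart. The germ line itself was represented in every library: 29 of 29 germ cell markers and 24 of 24 oocyte and eggshell markers passed the filter on low counts, and none was at 0 in any library.

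cpr-6, which encodes a cathepsin B-like cysteine protease, was much lower in the worms fed its RNAi. It stood at 79.4, 80.05, 65.5 and 101.1 CPM (a gene's count relative to the total of its library, with libraries scaled to each other) under cpr-6 RNAi, against 748, 729.6, 772 and 778 CPM in EV. The means were 81.5 ± 14.7 CPM and 757 ± 22.4 CPM (SD, n = 4 each), a fall to 10.8% of the EV level with an edgeR adjusted p of 2e-10. Libraries held 8184412 to 12506320 counts. One of them, cpr-6 RNAi replicate 4, stood apart from the rest. It had the fewest counts, 2.144% of counts from the mitochondrial genome against 0.805% to 1.156% in the other 7 libraries, and a first principal component of 40.7 against -19.7 to 5.15. The main counts over the 30 genes are therefore also given without that library, and the plot of fold changes shows every gene without it. The log2 fold change of cpr-6 was -3.22 with all libraries and -3.34 without it.

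None of the 30 genes changed between cpr-6 RNAi and EV at the threshold. edgeR's quasi-likelihood test, adjusted over 10932 genes, called 1 gene, cpr-6 itself (0.00915% of genes), and 0 of the 30. DESeq2 called 5 of the 10932 genes and limma voom 1, and both called 0 of the 30. At an unadjusted edgeR p under 0.05 there was 1 of the 30, zyg-12, where 3.85% of all genes tested had such a p. In 0 of the 30 did the 4 cpr-6 RNAi libraries lie wholly above or below the 4 EV libraries, against 2.50% of all genes tested. The log2 fold changes ran from -0.30 to 0.14 with standard errors of 0.0759 to 0.163. Their median was -0.04, beside 0.00058 over all genes and -0.02 over genes whose mean CPM fell in the range of the 30. By role the median was -0.04 for replication, -0.04 for mitosis and -0.02 for meiosis.

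The measurements bounded the change in each of the 30 genes, as they did in most genes of a like level. The 95% interval of the fold change (limma voom) lay within 1.5-fold in either direction for 30 of the 30 genes, against 63.5% of all genes tested and 94.3% of the 5461 genes whose mean level fell in the same CPM range as the 30. It lay within 1.25-fold for 18 of the 30, against 28.6% of all genes tested, a share not taken over the genes of that CPM range. These 18 comprised 7 of 10 replication genes, 10 of 14 mitotic genes and 1 of 6 meiotic genes. Across the EV libraries the SD of log2 CPM had a median of 0.0877 over the 30, against 0.169 over all genes tested and 0.111 over the genes of their CPM range. That figure leaves out the cpr-6 RNAi group, which was more spread. The SD of CPM was larger under cpr-6 RNAi than in EV for all of the 30 except mcm-5, cdk-1, bub-1 and zyg-12. In syp-2, for example, it was 14.5 CPM under cpr-6 RNAi and 3.08 CPM in EV.

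**Figure D1:**
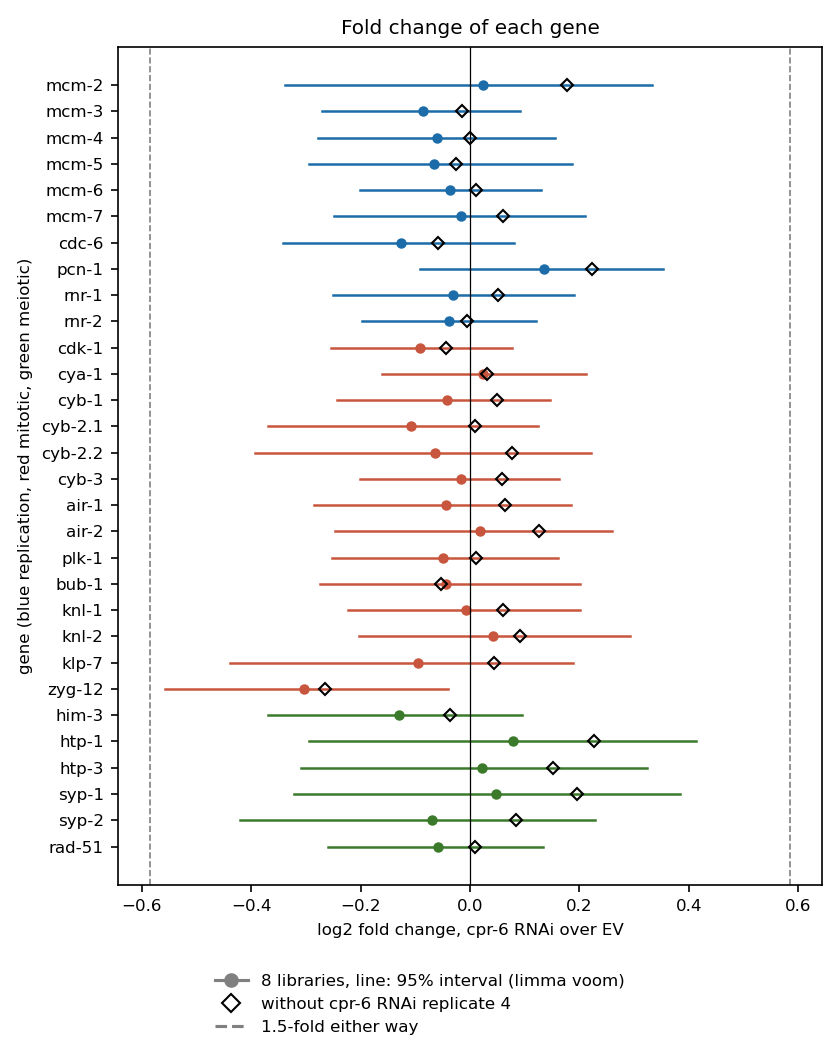
Log2 fold change of each of the 30 genes (x axis, cpr-6 RNAi over EV), with 1 row per gene coloured by role. Filled points are edgeR values from 8 libraries, lines are 95% intervals from limma voom, open diamonds are edgeR values without cpr-6 RNAi replicate 4, and dashed lines mark 1.5-fold either way. All 30 intervals lie inside the dashed lines, and the interval of zyg-12 (-0.56 to -0.04) is the one of the 30 that does not include 0.

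What the 30 genes shared was their level in 1 library. cpr-6 RNAi replicate 4 was the lowest of the 8 libraries for 27 of the 30, where it was the lowest for 29.0% of all genes tested and for 47.6% of the genes in their CPM range. The 27 comprised 9 of 10 replication genes, 12 of 14 mitotic genes and 6 of 6 meiotic genes. In the remaining 3 genes, mcm-5, cya-1 and bub-1, EV replicate 4 was the lowest. The count depended on the scaling between libraries. It was 27 of 30 with RLE scaling, 25 with total counts alone and 21 with upper quartile scaling, under which 20.9% of all genes tested were lowest there. The 6 meiotic genes were lowest in that library under each of the 4 scalings.

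Summed over the replication genes, the level was 3533, 3536, 3266 and 2791 CPM in cpr-6 RNAi replicates 1 to 4, against 3478, 3523, 3315 and 3197 CPM in EV. The mitotic genes summed to 3747, 3769.8, 3769 and 2896 CPM under cpr-6 RNAi, against 3822, 3745, 3669 and 3474 CPM in EV. The meiotic genes summed to 439, 465, 482 and 325 CPM under cpr-6 RNAi, against 462, 454, 434 and 409.7 CPM in EV. For all 3 sums, cpr-6 RNAi replicate 4 was the lowest library and EV replicate 4 the next lowest, and the other 6 libraries lay above both. Measured against the mean of cpr-6 RNAi replicates 1 to 3, the median gene stood in replicate 4 at a log2 difference of -0.31 for replication, -0.33 for mitosis and -0.69 for meiosis. The median over all genes tested was 0.05, and over the genes of the same CPM range it was -0.14.

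**Figure D2:**
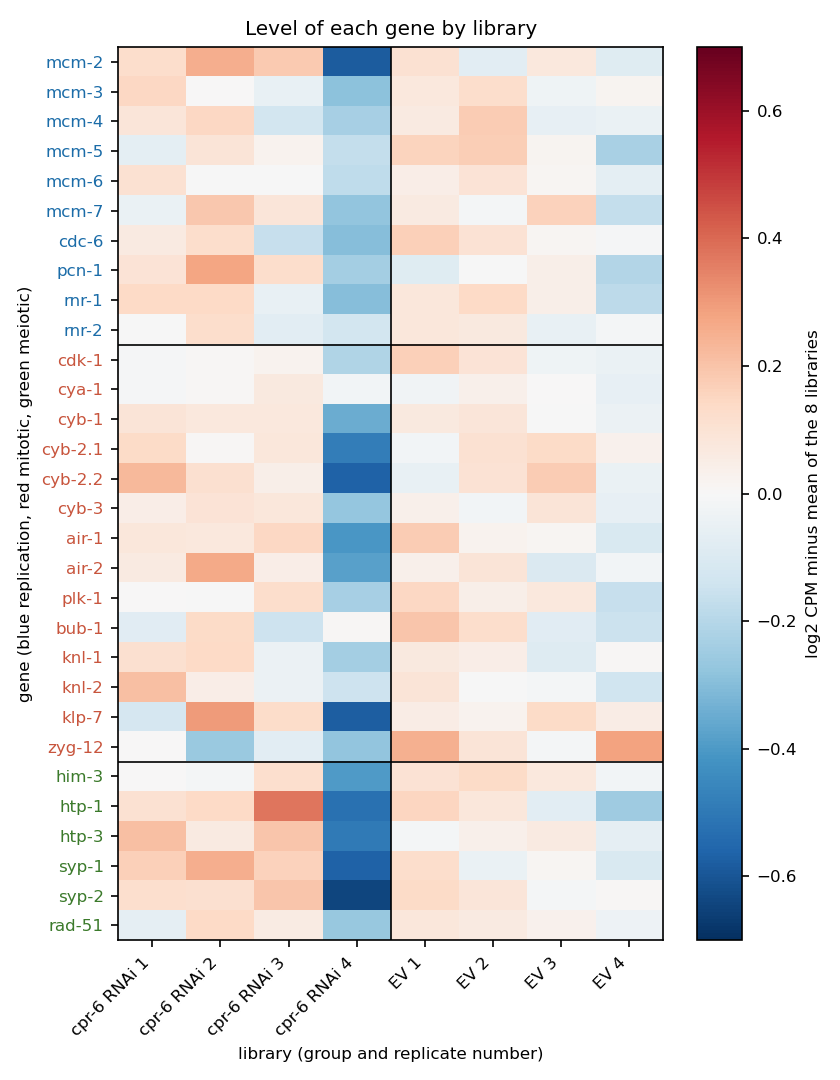
Heat map of the 30 genes (rows, grouped by role) in the 8 libraries (columns, cpr-6 RNAi left and EV right). Colour gives log2 CPM minus the gene's mean over the 8 libraries, from blue (lower) to red (higher), and the column of cpr-6 RNAi replicate 4 is blue in nearly every row, down to -0.64 for syp-2.

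Leaving that library out changed the sign of the fold change in 13 of the 30 genes. With all 8 libraries, 22 of the 30 fold changes lay below 0. Of all genes tested 49.8% did, a share not taken over the genes in the CPM range of the 30. Without cpr-6 RNAi replicate 4, 9 of the 30 did, where 50.4% of genes did, and the median log2 fold change was 0.05. By role the numbers below 0 were 8 of 10, 11 of 14 and 3 of 6 with all libraries, and 5 of 10, 3 of 14 and 1 of 6 without it, for replication, mitosis and meiosis. edgeR called 3 genes there (0.0270% of 11098 tested) and 0 of the 30. Of the 30, 4 had an unadjusted p under 0.05, against 5.19% of all genes tested there. Those 4 were pcn-1 (log2 fold change 0.22, adjusted p 0.791), mcm-2 (0.18), htp-1 (0.23) and zyg-12 (-0.27), the last 3 with an edgeR adjusted p of 0.941. The groups did not overlap in 3 of the 30, mcm-2, pcn-1 and syp-1, against 6.33% of all genes tested there. The 95% interval lay within 1.25-fold for 23 of the 30, against 35.0% of all genes tested there, a share not taken over the genes of their CPM range.

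The replication genes begin with the helicase that unwinds DNA at the fork, a ring of the 6 proteins MCM-2 to MCM-7. mcm-2 (WBcel235 chromosome II, 12001510 to 12006625, minus strand) stood at 218, 239, 227 and 133 CPM under cpr-6 RNAi, against 215, 190, 211 and 188 CPM in EV. Replicates 1 to 3 of cpr-6 RNAi lay above all 4 EV libraries and replicate 4 below all 4, so that the means of 204 ± 48.0 and 201 ± 13.9 CPM (SD, n = 4 each) nearly coincided, with a log2 fold change of 0.02 ± 0.149 (SE). mcm-3 (chromosome V, 15056719 to 15059599, minus strand) stood at 1111, 1009.6, 972 and 824 CPM under cpr-6 RNAi, against 1060.4, 1096, 985 and 1019 CPM in EV. Its libraries interleaved except for cpr-6 RNAi replicate 4, and its log2 fold change was -0.09 ± 0.0862 (SE).

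mcm-6 had 556, 516, 515 and 457 CPM under cpr-6 RNAi, against 533, 551, 521 and 492 CPM in EV. mcm-7 had 118, 139, 129 and 100.6 CPM under cpr-6 RNAi, against 127, 121, 136 and 109 CPM in EV. In both, the lowest library of each group was its replicate 4. mcm-4 stood at 83.7 to 108 CPM under cpr-6 RNAi and 94.2 to 111 CPM in EV, and mcm-5 at 35.8 to 42.9 CPM under cpr-6 RNAi and 34.4 to 45.5 CPM in EV. In mcm-5 the lowest library was EV replicate 4. The 6 helicase genes had log2 fold changes of -0.09 to 0.02. Within cpr-6 RNAi, their level in replicate 4 against replicates 1 to 3 ran from -0.18 in mcm-5 to -0.77 in mcm-2 on the log2 scale.

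CDC-6 loads that helicase at replication origins. cdc-6 stood at 165, 172, 141.7 and 129 CPM under cpr-6 RNAi, against 178, 169.6, 159 and 158 CPM in EV, with 2 libraries of the cpr-6 RNAi group below all of EV. PCN-1, the worm PCNA, is the sliding clamp that holds DNA polymerase on its template. pcn-1 (chromosome IV, 4047937 to 4049448, minus strand) stood at 228, 259, 233 and 181 CPM under cpr-6 RNAi, against 202, 214, 220.3 and 186 CPM in EV. As in mcm-2, replicates 1 to 3 of cpr-6 RNAi were above all EV libraries and replicate 4 was below them. Its log2 fold change of 0.14 ± 0.104 (SE; 95% interval -0.09 to 0.35) was the highest of the 30 and did not pass the test (edgeR adjusted p 0.997).

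rnr-1 and rnr-2 encode the large and the small subunit of ribonucleotide reductase, which makes the deoxynucleotides for replication. rnr-1 stood at 360.2, 361, 316 and 266 CPM under cpr-6 RNAi, against 346, 361, 337 and 288 CPM in EV. rnr-2 stood at 634, 689, 602 and 580 CPM under cpr-6 RNAi, against 669.7, 664, 610.3 and 629 CPM in EV. The subunit genes had nearly equal log2 fold changes of -0.03 and -0.04. In replicate 4 against replicates 1 to 3 of cpr-6 RNAi, rnr-1 was lower by a log2 difference of -0.37 and rnr-2 by -0.14.

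Entry into mitosis depends on CDK-1 and its B-type cyclins. cdk-1 (chromosome III, 9747432 to 9748852, plus strand) stood at 734, 743, 752 and 639 CPM under cpr-6 RNAi, against 828, 789.8, 724 and 716 CPM in EV. Replicate 4 of cpr-6 RNAi was below all other libraries, while replicates 1 to 3 lay within the EV range, and the log2 fold change was -0.09 ± 0.079 (SE; 95% interval -0.26 to 0.08). cyb-1 (chromosome IV, 10735259 to 10737177, plus strand), a cyclin B gene, stood at 984, 972, 973 and 727 CPM under cpr-6 RNAi, against 968, 979.8, 922 and 899 CPM in EV. cyb-3, which encodes the worm cyclin B3, stood at 698, 721, 712 and 559 CPM under cpr-6 RNAi, against 692, 665, 718 and 647 CPM in EV. In both cyclins, 3 cpr-6 RNAi libraries lay close together and the fourth was the lowest of all 8, with log2 fold changes of -0.04 and -0.02.

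cyb-2.1 and cyb-2.2 are closely related cyclin B genes, and how reads that match both were counted is not given in the sources used here, so their split is uncertain. cyb-2.1 stood at 206, 189, 198 and 134 CPM under cpr-6 RNAi, against 185, 202, 206 and 192 CPM in EV. cyb-2.2 stood at 199, 183, 175 and 114.8 CPM under cpr-6 RNAi, against 164, 183, 192 and 164 CPM in EV. Both were lowest in cpr-6 RNAi replicate 4, at log2 differences of -0.56 and -0.69 from replicates 1 to 3. cya-1, a cyclin A gene, stood at 52.9, 53.6, 55.8 and 52.6 CPM under cpr-6 RNAi, against 52.4, 54.5, 53.3 and 51.1 CPM in EV. It varied least of the 30 among EV libraries (SD of log2 CPM 0.0387), and cpr-6 RNAi replicate 4 lay inside the EV range.

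AIR-1 (Aurora A) builds the spindle from the centrosomes, AIR-2 (Aurora B) corrects and releases chromosome attachments in mitosis and meiosis, and PLK-1 is the Polo kinase. air-1 (chromosome V, 8221410 to 8223587, plus strand) stood at 406, 404, 424 and 289 CPM under cpr-6 RNAi, against 434, 391, 388 and 357 CPM in EV. air-2 stood at 75.1, 86.4, 74.2 and 55.2 CPM under cpr-6 RNAi, against 73.5, 76.3, 66.9 and 71.0 CPM in EV. plk-1 stood at 158, 157, 171 and 134 CPM under cpr-6 RNAi, against 174, 162, 166 and 141 CPM in EV. The 3 kinase genes had log2 fold changes of -0.05 to 0.02, and in each the lowest library was cpr-6 RNAi replicate 4. Its distance from replicates 1 to 3 was -0.51 on the log2 scale for air-1, -0.50 for air-2 and -0.27 for plk-1.

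Kinetochores join chromosomes to microtubules. KNL-2 helps to place the centromeric histone, KNL-1 is a scaffold of the outer kinetochore, and BUB-1 is a kinase recruited to it. knl-1 stood at 63.3 to 82.5 CPM under cpr-6 RNAi and 70.2 to 78.4 CPM in EV. knl-2 stood at 20.7 to 26.6 CPM under cpr-6 RNAi and 20.8 to 24.5 CPM in EV. bub-1 stood at 35.6, 41.2, 34.0 and 37.7 CPM under cpr-6 RNAi, against 43.0, 40.99, 35.5 and 33.8 CPM in EV. bub-1 was the one gene of the 30 with a higher level in cpr-6 RNAi replicate 4 than in the mean of replicates 1 to 3 (log2 difference 0.04). The 3 kinetochore genes had log2 fold changes of -0.04 to 0.04. KLP-7, a kinesin that takes microtubules apart, had a much lower transcript level in that library. klp-7 (chromosome III, 10805930 to 10810999, plus strand) stood at 70.9, 94.6, 84.3 and 51.6 CPM under cpr-6 RNAi, against 79.8, 78.2, 84.6 and 79.9 CPM in EV, and its SDs were 18.6 and 2.77 CPM (n = 4 each).

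zyg-12 (chromosome II, 4949902 to 4953488, plus strand) encodes a nuclear envelope protein that ties the nucleus to centrosomes and links meiotic chromosomes to dynein outside the nucleus. It stood at 21.2, 17.6, 20.0 and 17.4 CPM under cpr-6 RNAi, against 25.102, 22.4, 20.9 and 25.6 CPM in EV. The means were 19.03 ± 1.85 and 23.5 ± 2.25 CPM (SD, n = 4 each), and the groups overlapped by 1 library, since cpr-6 RNAi replicate 1 exceeded EV replicate 3. The log2 fold change was -0.30 ± 0.121 (SE) with a 95% interval of -0.56 to -0.04, an unadjusted p of 0.0238 and an edgeR adjusted p of 0.997. Unlike the shared pattern, the difference did not rest on cpr-6 RNAi replicate 4: it was -0.27 without that library, -0.30 within replicates 1 and 2 and -0.32 within replicates 3 and 4. The unadjusted p was above 0.05 without cpr-6 RNAi replicate 2, EV replicate 1 or EV replicate 4. The authors' deposited table gives it a log2 fold change of -0.319 with an unadjusted p of 0.0322 and an adjusted p of 1.0.

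**Figure D3:**
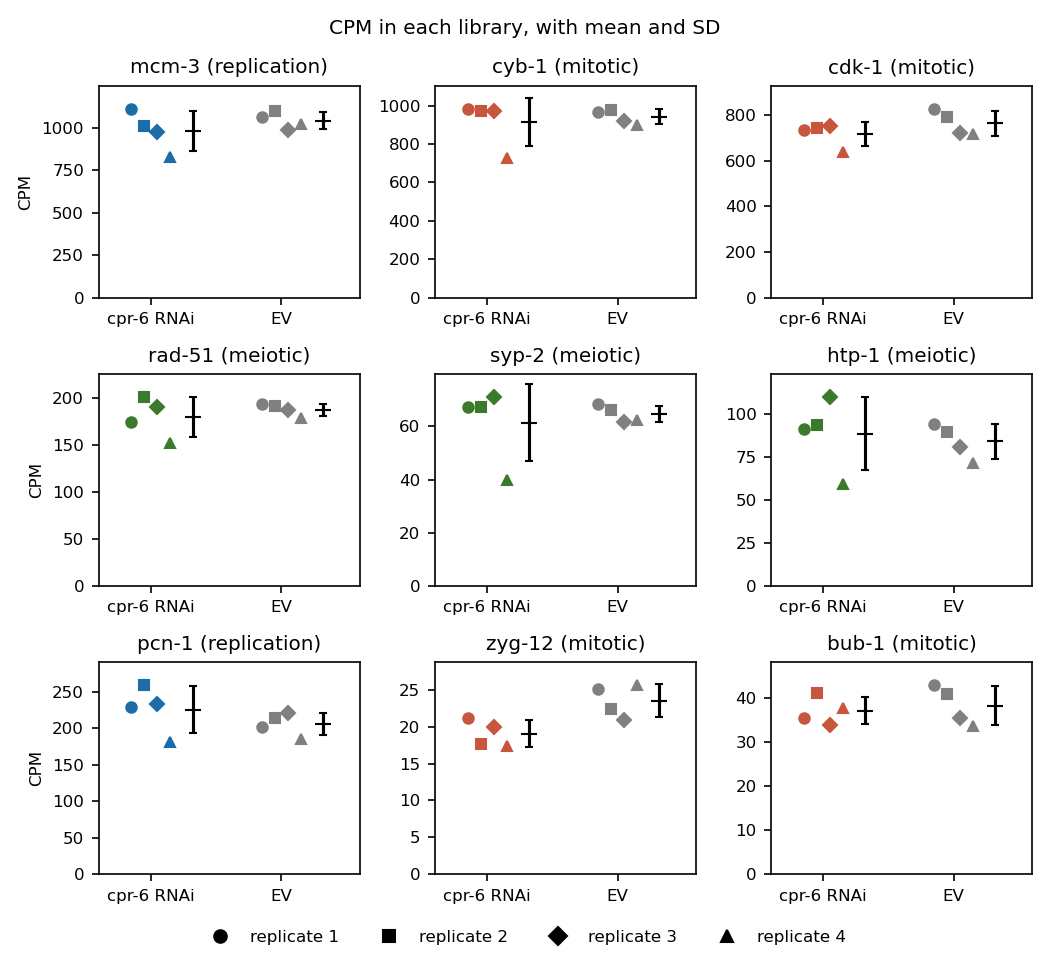
CPM of 9 of the 30 genes in each library (y axes from 0), with cpr-6 RNAi in colour on the left and EV in grey on the right of each panel. Symbols give the replicate number and the bar the mean ± SD (n = 4). In mcm-3, cyb-1, cdk-1, rad-51, syp-2, htp-1 and pcn-1 the triangle of cpr-6 RNAi replicate 4 lies below the other 7 libraries, which it does not in bub-1, and in zyg-12 most cpr-6 RNAi libraries lie below EV.

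In meiosis, HTP-3, HIM-3 and HTP-1 belong to the HORMA domain proteins that form the axis along each chromosome. htp-3 stood at 20.96, 18.9, 20.7 and 12.8 CPM under cpr-6 RNAi, against 17.9, 18.5, 18.9 and 17.3 CPM in EV. him-3 stood at 67.6, 66.7, 73.2 and 51.1 CPM under cpr-6 RNAi, against 72.3, 73.9, 70.8 and 66.6 CPM in EV. htp-1 (chromosome IV, 5390184 to 5391557, minus strand) stood at 91.3, 93.4, 109.9 and 58.98 CPM under cpr-6 RNAi, against 94.1, 89.8, 80.7 and 71.3 CPM in EV. In all 3, cpr-6 RNAi replicate 4 was the lowest library. htp-1 and htp-3 had both their highest and their lowest library in the cpr-6 RNAi group. The log2 fold change of htp-1 was 0.08 ± 0.159 (SE; 95% interval -0.29 to 0.41). htp-1 has a close relative, htp-2, and how reads that match both were counted is not given in the sources used here.

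SYP-1 and SYP-2 are components of the synaptonemal complex, which holds paired chromosomes together. syp-1 (chromosome V, 16405751 to 16407699, plus strand) stood at 16.5, 17.6, 16.5 and 9.89 CPM under cpr-6 RNAi, against 16.1, 14.2, 14.9 and 13.7 CPM in EV. syp-2 (chromosome V, 5536681 to 5537713, plus strand) stood at 67.5, 67.2, 71.1 and 39.8 CPM under cpr-6 RNAi, against 68.3, 66.0, 61.7 and 62.5 CPM in EV. Replicates 1 to 3 of cpr-6 RNAi lay above all 4 EV libraries in syp-1 and above 3 of them in syp-2, and replicate 4 lay below all 4 in both. The log2 differences of replicate 4 from replicates 1 to 3 were -0.76 and -0.78, while the fold changes between groups were 0.05 ± 0.163 and -0.07 ± 0.146 (SE) on the log2 scale.

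RAD-51 coats single-stranded DNA at double-strand breaks and carries out strand exchange, in meiosis and after replication faults alike. rad-51 (chromosome IV, 10281637 to 10284244, minus strand) stood at 175, 201, 191 and 152.3 CPM under cpr-6 RNAi, against 193, 192, 187 and 178 CPM in EV. Its log2 fold change was -0.06 ± 0.0925 (SE; 95% interval -0.26 to 0.13). Its drop in cpr-6 RNAi replicate 4, at a log2 difference of -0.31 from replicates 1 to 3, was the smallest of the 6 meiotic genes, and the other 5 ran from -0.43 to -0.78.

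Wider lists of the same pathways, drawn up by name like the 30, also lay mostly below 0 with all 8 libraries. Of 44 other replication genes tested, 9 lay above 0 and 35 below, with a median log2 fold change of -0.06. Of 84 other cell cycle and mitosis genes, 19 lay above 0 and 65 below, with a median of -0.07. Of 51 other meiosis genes, 9 lay above 0 and 42 below, with a median of -0.07. edgeR called 0 of each list, and 1, 2 and 2 genes had an unadjusted p under 0.05, each of them with a fold change below 0. Over all genes tested the share with such a p was 3.85%, above the share in the replication and mitosis lists and about the same as in the meiosis list. Without cpr-6 RNAi replicate 4 the medians were -0.01, -0.01 and 0.01 for replication, mitosis and meiosis, with 23 of 44, 49 of 84 and 25 of 51 below 0. That library was the lowest of 8 for 33 of 44, 63 of 84 and 40 of 51 genes. It was the lowest for 29.0% of all genes tested and 47.6% of those in the CPM range of the 30.

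The smallest p-values in these lists belonged to zyg-1, the kinase that starts centriole duplication, and tpxl-1, the activator of AIR-1. zyg-1 stood at 12.4, 14.9, 10.2 and 10.5 CPM under cpr-6 RNAi, against 17.3, 15.7, 16.9 and 13.9 CPM in EV (log2 fold change -0.41, unadjusted p 0.0151, edgeR adjusted p 0.997). tpxl-1 stood at 74.7, 57.7, 56.3 and 47.9 CPM under cpr-6 RNAi, against 78.4, 70.4, 66.6 and 81.4 CPM in EV (log2 fold change -0.33, unadjusted p 0.0190, edgeR adjusted p 0.997). The groups overlapped in both. pola-1, which encodes the catalytic subunit of DNA polymerase alpha, stood at 34.0, 33.3, 35.6 and 35.2 CPM under cpr-6 RNAi, against 40.7, 41.8, 41.9 and 35.9 CPM in EV. Its groups did not overlap, nor did those of the calmodulin gene cmd-1 (712 ± 17.04 CPM under cpr-6 RNAi and 791 ± 52.5 CPM in EV; SD, n = 4 each). Over all genes tested, the groups did not overlap in 2.50%, and such genes were not counted over the wider lists. Neither pola-1 nor cmd-1 passed edgeR's test, at log2 fold changes of -0.21 and -0.15, and without cpr-6 RNAi replicate 4 these were -0.23 and -0.16. The histone methyltransferase gene mes-4, which the list holds for its part in the germ line, had a log2 fold change of -0.20, and msh-5, whose product acts in meiotic crossing over, had -0.31, both at an edgeR adjusted p of 0.997. Next by p came div-1, top-2 and ctf-4 in replication (-0.22, -0.11 and -0.15), tbg-1 in mitosis (-0.17), and gsp-2 and him-5 in meiosis (-0.14 and -0.19), all with an unadjusted p above 0.05. Without cpr-6 RNAi replicate 4 the log2 fold changes were -0.35 for zyg-1, -0.24 for tpxl-1, -0.19 for mes-4 and -0.23 for msh-5. They were -0.13 for div-1, -0.08 for top-2, -0.07 for ctf-4, -0.13 for tbg-1, -0.14 for gsp-2 and -0.08 for him-5.

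In cpr-6 RNAi replicate 4, germ cell, oocyte and eggshell markers were low as well, while sperm genes, given below, were high. The germ cell markers had a median log2 CPM of -0.35 relative to the mean of the 8 libraries, and 27 of 29 were lowest there. The oocyte and eggshell markers stood at -0.37, with 21 of 24 lowest there. In the other 7 libraries the germ cell median lay between -0.003 and 0.10 and the oocyte median between 0.01 and 0.11. Summed germ cell markers ranged from 9124 to 12483 CPM under cpr-6 RNAi and from 11509 to 11948 CPM in EV, and oocyte markers from 29303 to 34964 CPM under cpr-6 RNAi and from 33572 to 35648 CPM in EV.

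Markers of several other tissues were high in that library, which was the highest of the 8 for 29.8% of all genes tested. Its median was 0.81 for epidermis and cuticle, where 13 of 18 genes were highest there, 0.35 for body wall muscle (11 of 19), 0.38 for the somatic gonad (6 of 13), 0.17 for the intestine (9 of 20) and 0.14 for neurons (9 of 18). The intestine median was nearly the same in cpr-6 RNAi replicate 1 (0.16), and the neuron median was higher in EV replicate 3 (0.15). Summed intestine markers stood at 41602 CPM in cpr-6 RNAi replicate 4, within 31661 to 54868 CPM under cpr-6 RNAi and 33406 to 45493 CPM in EV. Summed somatic gonad markers stood at 842 CPM there, within 838 to 884 CPM under cpr-6 RNAi and 823 to 843 CPM in EV. Sperm genes, which are germline genes too, stood at 0.87, with 16 of 23 highest there. Their summed level was 47.2 to 112 CPM under cpr-6 RNAi and 32.3 to 84.9 CPM in EV. Of 38 sperm genes listed, 23 passed the filter on low counts, and 7 of the 38 were at 0 in at least 1 library. Early zygotic embryo genes stood at 0.41, with 8 of 9 highest there, and summed to 71.6 to 107 CPM under cpr-6 RNAi and 71.9 to 82.8 CPM in EV. Of 21 embryo genes listed, 9 passed the filter on low counts, and 7 of the 21 were at 0 in at least 1 library. The gene elt-7 is in both the embryo and the intestine list. Summed muscle markers were 6906 to 8607 CPM under cpr-6 RNAi and 4706 to 7584 CPM in EV, and summed epidermal markers 3202 to 5418 CPM under cpr-6 RNAi and 2397 to 3328 CPM in EV. The sperm gene msp-53, the embryo gene med-2 and the somatic gonad gene ckb-3 were at 0 in all 8 libraries. The part of these lists, of the mitochondrial share and of sequencing depth in the low level of the 30 genes was not tested.

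**Figure D4:**
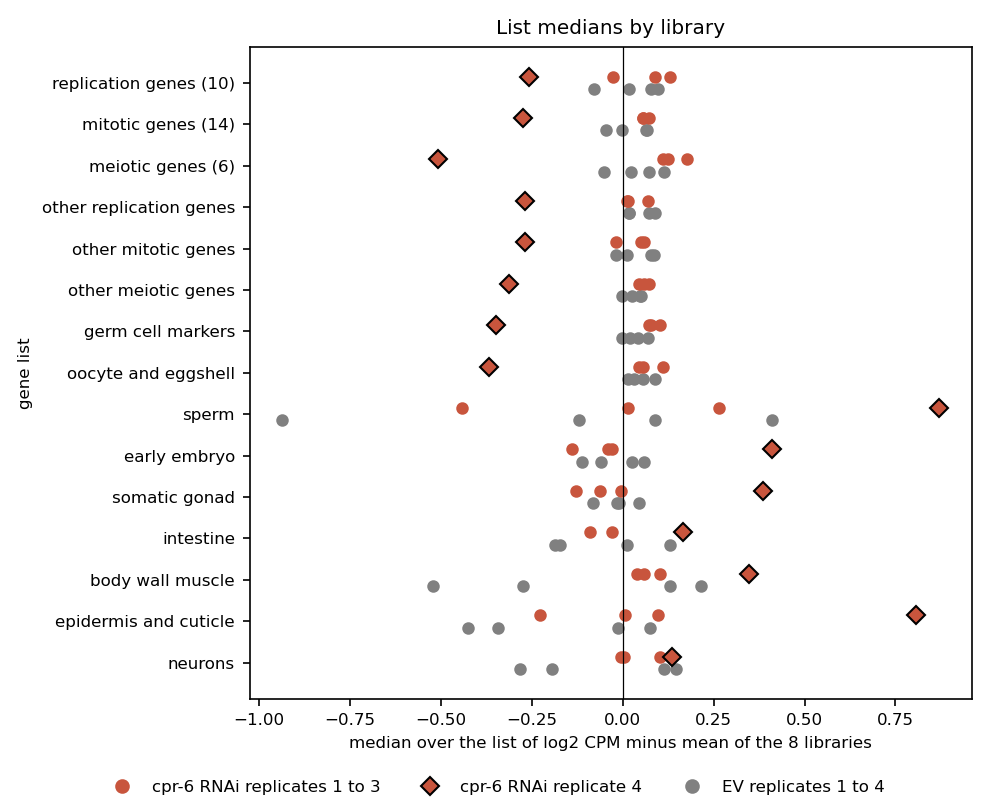
Median over each gene list of log2 CPM minus the mean of the 8 libraries (x axis), with 1 row per list. Red circles are cpr-6 RNAi replicates 1 to 3, outlined red diamonds are cpr-6 RNAi replicate 4, and grey circles are the 4 EV libraries. The diamond lies left of all circles in the replication, mitosis, meiosis, germ cell and oocyte rows (-0.26 to -0.51) and right of them in the sperm, embryo, somatic gonad, muscle, epidermis and intestine rows.

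The fold changes in the authors' deposited table match a DESeq2 model with a term that separates replicates 1 and 2 from replicates 3 and 4 (within 0.001 for 13217 of 13217 genes), a division that no label explains, so the effect was also taken on each side of it. Over the 30 genes the median log2 fold change was 0.00 within replicates 1 and 2 and -0.10 within replicates 3 and 4, which include cpr-6 RNAi replicate 4. Over all genes these medians were 0.00024 and 0.00585. edgeR called 99 of 10821 genes within replicates 1 and 2 and 1 of 11331 within replicates 3 and 4, and 0 of the 30 in either. The effect in replicates 1 and 2 minus that in replicates 3 and 4 was above 0 for 24 of the 30 and below 0 for 6. Its median was 0.12 over the 30 and 0.01 over all genes tested, and the share of all genes above 0 was not taken. edgeR's interaction test called 0 of 10932 genes (418 at unadjusted p under 0.05), DESeq2's also called 0 (263 at unadjusted p under 0.05), and 0 of the 30 had an unadjusted p under 0.05 in either. Of the 30, the authors' deposited table puts 23 below 0 and 7 above, with 1 at an unadjusted p under 0.05 and 0 at an adjusted p under 0.05. The matching shares over all of the authors' genes were not taken, so these counts have no background beside them.

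On the chromosomes of the build WBcel235, 7 of the 30 genes lie on I, 2 on II, 9 on III, 6 on IV and 6 on V. None lies on X, which holds 1530 of the 10932 genes tested. In 4 of the 30 another tested gene overlaps on the opposite strand: ekl-7 beside mcm-4, dos-1 beside cya-1, acdh-3 beside knl-2 and prkl-1 beside him-3. Their mean levels were 39.9, 1.27, 136 and 16.7 CPM. Whether reads were counted by strand is not given in the sources used here, so the values of these 4 genes may include reads of their neighbours.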

How the data were processed

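RNA of 8 pools of whole worms was sequenced with CEL-Seq2. The authors deposited raw counts per gene, with log2 fold changes and p-values of their own comparison. The submitters' processing notes name DESeq2 1.30.1, HTSeq 0.12.4, TopHat2 2.1.1 and cutadapt 2.10, and the genome build WBcel235. Tool settings, strand use and molecular identifiers are not given there. If copies were not collapsed, amplification adds to the counts. The series text states 4 biological repeats, and a p-value here sets a difference against the spread between libraries. Beyond that text, nothing in the labels shows separate cultures.

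From the deposited counts, edgeR 4.0.16 in R 4.3.3 with TMM scaling tested treatment by a robust quasi-likelihood fit (filterByExpr, minimum count 10) over 10932 genes, two-sided, with Benjamini-Hochberg adjustment and a threshold of 0.05. The lowest count of any of the 30 genes in a library was 82. Standard errors were derived from edgeR's test, as the absolute log2 fold change over the square root of its F statistic. Intervals come from a different fit, limma 3.58.1 voom, and DESeq2 1.42.0 was an alternative. cpr-6 also had an exact permutation p of 0.0286, the smallest that 4 against 4 allows. Log2 CPM per library used a prior count of 2. Levels in CPM are not compared between genes. The edgeR test was tried on simulated counts. It recovered 23 of 67 changes of 1.5-fold, 49 of 67 of 2-fold and 64 of 66 of 4-fold, with 10 false calls. No pair of libraries in a group held identical values. Same-numbered libraries were not taken as pairs. The rule for named genes took all 30, cpr-6 and up to 4 genes with the smallest p of each wider list. Of 398 names in the other lists, 388 were found. The genes and lists were chosen with earlier results of these data known. Fits within replicates 1 and 2 and within replicates 3 and 4, and intervals and overlaps without cpr-6 RNAi replicate 4, were added after seeing the data. Sequences were not used here.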

Additional observations from a re-analysis of the deposited data

Results flagged for a closer look

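Within the cpr-6 RNAi group, 6 of the 30 genes had 1 library far from the other 3 by Dixon's test, and in each it was replicate 4. cdk-1 stood at 639 CPM there, against 734 to 752 CPM in replicates 1 to 3, and cyb-1 at 727 CPM against 972 to 984 CPM. cyb-3 stood at 559 CPM against 698 to 721 CPM, and air-1 at 289 CPM against 404 to 424 CPM. In the synaptonemal complex, syp-1 stood at 9.89 CPM against 16.5 to 17.6 CPM, and syp-2 at 39.8 CPM against 67.2 to 71.1 CPM. The same test picked out replicate 4 for the median of the mitotic genes, at a log2 difference of -0.274 from the mean of the 8 libraries against 0.0561 to 0.0731, and for the median of the meiotic genes, at -0.508 against 0.112 to 0.177. By chance about 1 in 20 groups is picked out. Over all genes tested, 8.32% were picked out in the cpr-6 RNAi group and 5.28% in the EV group, where 0 of the 30 genes were.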

How the results depend on the processing

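edgeR called 1 gene with all libraries, 28 with no low-count filter and 2 with the replicate block, and DESeq2 called 5. The edgeR count ran from 1 to 3 as each of the 8 libraries was left out. It was 3 without cpr-6 RNAi replicate 4 and 2 without cpr-6 RNAi replicate 2. The cause of these differences was not tested. None of the 30 genes was called under any of the 17 alternatives. Their median log2 fold change lay between -0.09 and 0.05 over the leave-outs, and was above 0 only without cpr-6 RNAi replicate 4, where 13 of the 30 genes changed sign. The other alternatives changed the sign of 0 to 5 genes. The deviations of libraries with the same replicate number had correlations of -0.031, 0.121, 0.0187 and 0.249. That of replicate 4 was the highest of all 16 pairs. Only 2 of the 4 exceeded 0.1, so the numbers were not taken to pair the libraries, and with the replicate block 24 of the 30 fold changes lay below 0. The 3 other scalings moved 0 of 180 mean CPM values by more than 1 SD. The widest intervals of the 30 were those of htp-1 (-0.29 to 0.41) and syp-1 (-0.32 to 0.38) on the log2 scale, so small changes in these 2 genes were bounded less closely than in the others.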
